A study of Mus musculus with 6 samples.

Results

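Homologous recombination repairs a double-strand DNA break by copying the intact sister chromatid, and the Fanconi anaemia pathway hands crosslinked DNA to the same machinery. The 40 genes described here were fixed by name as members of these pathways, all 40 were found among the 46983 genes listed in the count files, and all 40 passed the low-count filter that left 12292 genes to test. They were chosen because LEDGF, the chromatin-bound protein made by Psip1, is known to help recruit CtIP, the product of Rbbp8, to broken DNA. The counts ask a different and narrower question, namely whether the messenger RNA of the pathway's genes differed where Psip1 was lost.

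The study sequenced polyadenylated RNA from 6 cultures of mouse bone marrow, 3 per genotype. Progenitors depleted of mature blood cells, taken from C57BL/6 mice of postnatal week 8 to 11, formed myeloid colonies in methylcellulose for 6 to 7 days, fed with mSCF (stem cell factor) and the interleukins IL-3 and IL-6. In the WT group the labels give the genotype as wild type, whereas the design text describes those mice as PsipFl/Fl, that is, with a floxed allele. The KO group is Psip1-KO in the labels and PsipVav/Vav in the design text. The sources used here do not describe how the allele was deleted, or in which cells. Nothing in the labels ties a library to an animal of its own, so each p-value reflects the spread among these samples, part of which may be technical. Both genotypes included libraries with Xist reads and libraries without, so neither group came from a single animal.

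Depth sets what can be seen. The deep libraries, WT replicates 1 and 2 and KO replicates 1 to 3, held 7056614 to 15569088 gene reads, but WT replicate 3 held 27909, and there a single read is worth 29.9 CPM (reads per gene after scaling for depth and composition). Levels are therefore given in CPM for the 5 deep libraries and as reads for WT replicate 3. In KO replicate 2 mitochondrial genes took 15.7% of gene reads, against 1.26% to 1.84% in the other deep libraries, and 27.0% of its reads mapped to several places. The shallow WT replicate 3 was also high, with 9.52% mitochondrial reads and 23% that mapped to several places, so it differed in more than depth. Psip1 itself had 89.3 and 70.0 CPM in the deep WT pair, 3 reads in WT replicate 3, and 14.8, 17.6 and 16.3 CPM in KO. Its log2 fold change was -2.32 (SE 0.32), with an adjusted p of 0.0599 by edgeR's quasi-likelihood test with Benjamini-Hochberg adjustment. The colonies carried neutrophil granule RNA (10 genes, 10460 to 39530 CPM in sum) and mast cell and basophil RNA (12 genes, 2953 to 9222 CPM), while 9 B and T cell markers summed to at most 9.50 CPM, with Cd3e, Cd3g, Cd8a and Ms4a1 at 0 reads in all 6 libraries.

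In outline, breaks are sensed by the kinases ATM and ATR, the broken ends are trimmed to single strands by the MRE11 complex with CtIP, and RPA coats those strands until BRCA1, PALB2 and BRCA2 load the recombinase that searches for the sister copy. Many of these genes are switched on by E2F factors as cells enter S phase, since recombination needs a replicated sister. Colonies that grow fast under cytokines contain many cycling progenitors, and marrow failure is the best known consequence of Fanconi gene mutations in blood.

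To see how many members carry the kind of word that E2F factors bind, promoter windows from RefSeq (GRCm38.p6, 250 bases before to 50 after the start of transcription) were searched for the E2F words TTTCCCGC, TTTCGCGC, TTTGCCGC and TTTGGCGC on both strands, where words of opposite strands can overlap. Windows were matched by symbol for 32 of the 40 members. A word was found in 6 of them (18.8%), against 403 of 9524 windows of tested genes (4.23%), 626 of 27025 windows in all (2.32%) and 9 of 22 windows of an S phase list (40.9%). A match is a description of the letters and shows no binding. The 6 members are Topbp1, Chek2, Bard1, Brca2 and Fancg, with the word upstream of the start site, and Rad51c, with the word after it. The surroundings of the word are printed for the 3 members in which they lie wholly upstream of the annotated gene, a checkpoint kinase and 2 mediators. They run from 5′ to 3′ on the strand of the gene, and the capitals mark the E2F word.
Chek2: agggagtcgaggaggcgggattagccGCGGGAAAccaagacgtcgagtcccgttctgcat
Bard1: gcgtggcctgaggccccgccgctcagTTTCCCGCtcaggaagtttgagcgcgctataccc
Brca2: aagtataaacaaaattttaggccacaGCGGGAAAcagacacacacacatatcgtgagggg
These stretches lie at chr5:110839805-110839864 (plus strand), chr1:71103148-71103207 (minus strand) and chr5:150522427-150522486 (plus strand). Counted from the start site, the word begins at position -152 in Chek2, -209 in Bard1 and -168 in Brca2.

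No member passed the test between the genotypes. Of the 40 members 0 passed the adjusted threshold of 0.05 in edgeR's quasi-likelihood test, where 0% of all 12292 genes passed, and each had an adjusted p of 1. At an unadjusted p under 0.05 there were again 0 members, where 1.45% of all genes were (0.212% with KO lower and 1.24% with KO higher). Without WT replicate 3 there were 0 members too, against 1.07% of all genes. DESeq2 likewise had 0 members past the adjusted threshold and 0 at an unadjusted p under 0.05. There the share was 0.171% of 22213 genes, which had not been filtered for low counts. The log2 fold changes of KO over WT ran from -0.48 (Nbn) to 0.35 (Fanca), with a median of -0.12 beside 0.01 over all genes tested. The 95% interval of the difference held 0 for all 40 members. For 16 of them it lay inside 1 log2 unit in both directions, so that a doubling or halving falls outside those intervals. For 18 members the interval reached past -1 only, for 3 past 1 only, and for Atm, Rad51b and Xrcc3 past both.

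**Figure D1:**
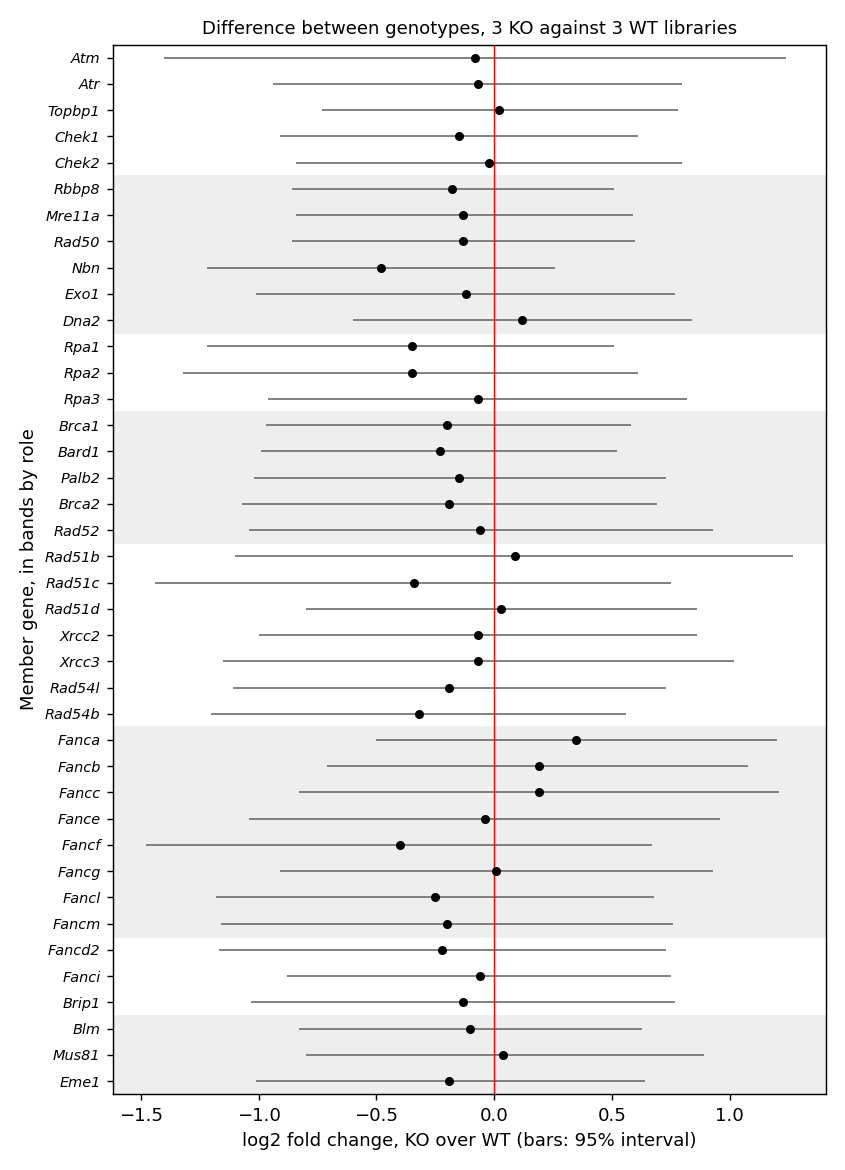
Log2 fold change of KO over WT (x axis) for each of the 40 genes (y axis, in shaded bands by role), from 3 KO and 3 WT libraries; points are the fitted values and bars the 95% intervals. The values run from -0.48 for Nbn to 0.35 for Fanca, and every bar crosses 0.

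More members lay below 0 than above, and the size of that lean varied with the libraries used. Of the 40 members 31 had a negative log2 fold change (77.5%, against 48.0% of all genes tested). Without KO replicate 2, 21 of 40 were negative and the median was 0.00, beside 46.2% negative and a median of 0.02 over all genes. Without WT replicate 2, 21 were negative as well, with a median of -0.01, but there the median of all genes was 0.09, with 41.6% negative. Without WT replicate 3 there were 33, with a median of -0.14 beside -0.02, and 53.6% of all genes were negative. Without both KO replicate 2 and WT replicate 3 there were 28, with a median of -0.06 beside -0.02, and 55.0% of all genes were negative. In 5 members, Chek1, Nbn, Brca2, Rad54b and Fanci, every KO library was below both deep WT libraries, which was the case for 3.87% of all genes. No member had every KO library above them, where 4.79% of all genes did. For Chek1 the gap between the lowest deep WT library and the highest KO library was 19.8 against 19.7 CPM.

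Levels per length spanned a wide range among the members. Expressed as CPM per kilobase of annotated exon and averaged over the 5 deep libraries, the 3 subunits of RPA were the most abundant, with Rpa1 at 25.4, Rpa2 at 21.3 and Rpa3 at 19.4, and their ranges over libraries overlapped. Topbp1 followed at 16.3, Fancg at 12.6 and Dna2 at 12.1. At the low end were Rad51b at 0.830, Fancc at 0.957, Atr at 1.10, Rad51c at 1.44 and Brca2 at 1.89. Neighbours in this order overlapped in their range over libraries, for example Topbp1 (13.3 to 18.2) with Rpa1 (12.6 to 34.0), and Rad51b (0.495 to 1.12) with Fancc (0.643 to 1.36). The exon length is the union of all annotated exons, which lowers the value of a gene with long rare exons.

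**Figure D2:**
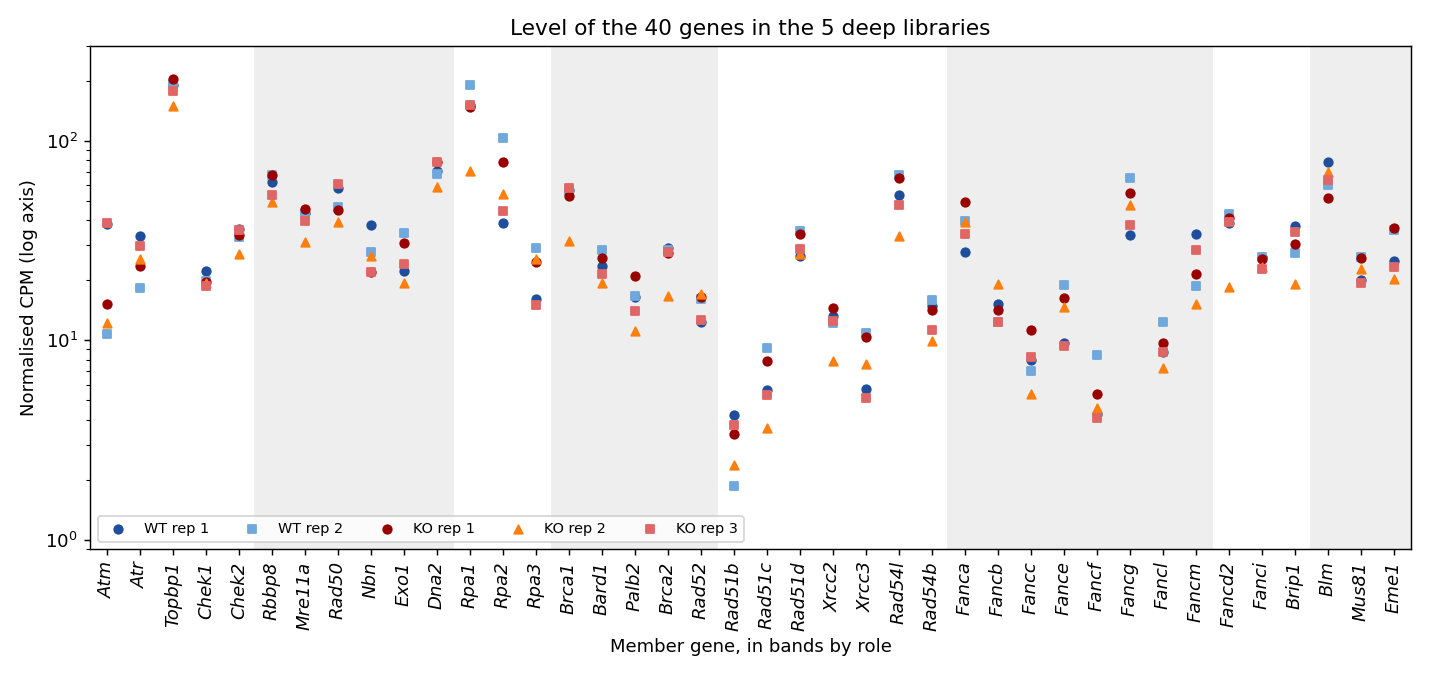
Normalised CPM (y axis, log scale) of each of the 40 genes (x axis, in bands by role) in the 5 deep libraries; blue symbols are WT replicates 1 and 2 and red or orange symbols KO replicates 1 to 3, and WT replicate 3 is left out because 1 read there equals 29.9 CPM. WT and KO symbols interleave in most columns, and KO replicate 2 (orange) is the lowest library for 22 of the 40 genes.

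Rbbp8 (ENSMUSG00000041238.15, plus strand of chromosome 18, 11633276 to 11745221, GRCm38), which encodes the resection factor CtIP, had 62.2 and 67.6 CPM in the deep WT pair and 2 reads in WT replicate 3. In KO replicates 1, 2 and 3 it had 67.7, 49.7 and 53.5 CPM. The highest library was a KO library, KO replicate 1, and the groups overlapped. The KO mean was 57.0 ± 9.51 CPM (SD, n = 3), and the log2 fold change was -0.18 (SE 0.31, 95% interval -0.86 to 0.51). The interval corresponds to between 0.550 and 1.42 times the WT level, so a difference of Rbbp8 RNA the size of that of Psip1 lies outside it. CtIP acts here together with the MRE11 complex, whose 3 genes are Mre11a, Rad50 and Nbn.

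Nbn (chromosome 4, ENSMUSG00000028224.14), the subunit that brings ATM to the break, had the lowest p of the 40 members. Its level was 38.1 and 27.8 CPM in the deep WT pair and 21.9, 26.4 and 22.1 CPM in KO, with 1 read in WT replicate 3. Every KO library was below both deep WT libraries, though WT replicate 2 and KO replicate 2 lay close. The log2 fold change was -0.48 (SE 0.34, 95% interval -1.22 to 0.26, unadjusted p = 0.18, adjusted p = 1 by edgeR's quasi-likelihood test with Benjamini-Hochberg adjustment). The size depended on WT replicate 1. Without it the log2 fold change was -0.20.

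The partners of Nbn were closer to 0. Mre11a, the nuclease, was at -0.13 (SE 0.33) and Rad50, the ATPase that tethers the ends, at -0.13 (SE 0.33). Long-range resection is carried by the nucleases Exo1 and Dna2. Dna2 had the highest CPM of the group, at 70.8 and 68.1 CPM in deep WT and 78.3, 59.0 and 78.2 in KO. The KO libraries lay on both sides of WT (log2 fold change 0.12, SE 0.33). Exo1 was at -0.12 (SE 0.41), with WT replicate 2 highest at 34.6 CPM and KO replicate 2 lowest at 19.5.

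Among the kinases and their partners, 4 of 5 members had a negative value and none was below -0.15. Topbp1, the activator of ATR, was read at 191 and 193 CPM in deep WT and at 204, 150 and 179 CPM in KO. Both ends of that range were KO libraries. The log2 fold change of Topbp1 was 0.02 (SE 0.34), with 3 reads in WT replicate 3, and -0.12 without that library. Chek1, the checkpoint kinase downstream of ATR, was among the most even of the members, at 22.2 and 19.8 CPM against 19.7, 19.3 and 18.8 CPM (-0.15, SE 0.35, interval -0.91 to 0.61). Chek2, which acts downstream of ATM, was at -0.02 (SE 0.37) and Atr at -0.07 (SE 0.40).

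Atm, the kinase that answers double-strand breaks, varied more than any other member, and along another line than genotype. WT replicate 1 and KO replicate 3 stood at 38.5 and 38.7 CPM, and WT replicate 2 and KO replicates 1 and 2 at 10.7, 15.3 and 12.2 CPM. The highest library was 3.63 times the lowest. The log2 fold change was -0.08 with a wide interval of -1.40 to 1.24, and without WT replicate 1 it was 1.17. Atm was taken up here because of this spread, after its values were seen.

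RPA coats single-stranded DNA in replication and repair alike. Rpa1, its large subunit, was at 151 and 190 CPM in deep WT and at 148, 70.4 and 151 CPM in KO, with 3 reads in WT replicate 3. KO replicate 2 alone lay far below the rest, and KO replicates 1 and 3 were level with WT replicate 1. The log2 fold change of -0.35 (SE 0.39) became -0.07 without KO replicate 2. Rpa2 had the same -0.35 (SE 0.44) with another distribution, at 38.7 and 103 CPM in WT and 78.2, 54.4 and 44.3 CPM in KO. There the 2 deep WT libraries were the lowest and the highest of all, and the value was 0.32 without WT replicate 2. Rpa3, the small subunit, was at -0.07 (SE 0.41).

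The BRCA mediators all had small negative values, from -0.23 to -0.06. Brca1 (ENSMUSG00000017146.12, chromosome 11, 101488764 to 101551955, minus strand), the ubiquitin ligase subunit that favours resection, stood at 56.8 and 56.3 CPM in deep WT and at 52.9, 31.6 and 58.0 CPM in KO. KO replicate 2 was again the low library, and KO replicate 3 was the highest of the 5. The log2 fold change was -0.20 (SE 0.35, interval -0.97 to 0.58), and 0.02 without KO replicate 2. Bard1, the partner of BRCA1, was at 23.6 and 28.5 CPM against 25.9, 19.5 and 21.5 CPM (-0.23, SE 0.34), with overlap. Brca2, which delivers the recombinase, was at 29.0 and 28.4 CPM against 27.3, 16.6 and 27.6 CPM. All its KO libraries were below WT, replicates 1 and 3 only slightly, and its value moved from -0.19 to 0.01 without KO replicate 2. Palb2, the bridge between BRCA1 and BRCA2, was at -0.15 (SE 0.40), and Rad52, an annealing protein, at -0.06 (SE 0.45).

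Among the paralogs of the recombinase, which steady its filament, 3 were scarce. Rad51b, Rad51c and Xrcc3 held 15 to 132 reads in the deep libraries and 0 in WT replicate 3, which by counting alone allows up to 89.6 CPM. Their intervals were accordingly wide, for example -1.44 to 0.75 for Rad51c, whose log2 fold change was -0.34, while Rad51b was at 0.09 (SE 0.54) and Xrcc3 at -0.07 (SE 0.49). The paralogs with more reads, Rad51d at 0.03 (SE 0.38) and Xrcc2 at -0.07 (SE 0.43), were near 0. Rad54l, a motor protein that helps strand exchange, was at 53.4 and 67.3 CPM in deep WT and 65.6, 33.2 and 47.6 CPM in KO, so that KO replicate 1 matched WT replicate 2 (-0.19, SE 0.42). Rad54b had the lowest p of this role, at 14.8 and 16.0 CPM against 14.2, 9.97 and 11.3 CPM. All its KO libraries were lower (-0.32, SE 0.40, unadjusted p = 0.436), with KO replicate 1 just under WT replicate 1.

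The Fanconi core complex is the ubiquitin ligase of crosslink repair, and its 8 genes split evenly, 4 below and 4 above 0. Fanca had the largest positive value of the 40 members. It was read at 27.6 and 39.8 CPM in deep WT and at 49.2, 39.1 and 34.0 CPM in KO. Only KO replicate 1 exceeded both deep WT libraries (0.35, SE 0.39, interval -0.50 to 1.20, unadjusted p = 0.383). Fancg, an adaptor of the complex, was at 33.9 and 65.4 CPM in WT and 54.9, 47.6 and 37.7 CPM in KO. The KO libraries fell between the 2 deep WT libraries (0.01, SE 0.42). Fancl, the catalytic subunit, was at -0.25 (SE 0.43), and Fancm, the translocase that anchors the complex, at -0.20 (SE 0.44). The other subunits were Fancb and Fancc, both at 0.19 (SE 0.41 and 0.47), Fance at -0.04 (SE 0.45) and Fancf at -0.40 (SE 0.49). Fancf was among the scarcest, with 29 to 86 reads in the deep libraries, and without WT replicate 2 its value was 0.18.

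The core complex acts on FANCD2 and FANCI, the pair that clamps onto the crosslinked site. Fancd2 (chromosome 6, ENSMUSG00000034023.16) was at 38.8 and 43.2 CPM in deep WT and at 40.9, 18.5 and 39.4 CPM in KO, and had 0 reads in WT replicate 3. KO replicates 1 and 3 lay between the WT libraries and KO replicate 2 far below (-0.22, SE 0.43, and 0.07 without KO replicate 2). Fanci was the most even member, at 26.1 and 26.3 CPM in WT and 25.7, 23.3 and 22.7 CPM in KO, a range of 1.16-fold. Its log2 fold change was -0.06 (SE 0.37). Brip1, the helicase that binds BRCA1, was at -0.13 (SE 0.41).

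Joined molecules are undone at the end by the BLM helicase or cut by MUS81 with EME1. Blm was at 78.2 and 60.3 CPM in deep WT and 51.7, 69.8 and 63.5 CPM in KO, and it was 1 of the members in which KO replicate 2 was not low (-0.10, SE 0.33). Eme1 was at 25.0 and 35.8 CPM against 36.5, 20.2 and 23.2 CPM (-0.19, SE 0.38). Its catalytic partner Mus81 was at 0.04 (SE 0.39). In all 3 the groups overlapped.

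Libraries of 1 genotype differed among themselves in these genes. KO replicate 2 was the lowest deep library for 22 of the 40 members (55.0%), while it was lowest for 27.2% of all genes tested. WT replicate 2 was the highest for 17 members (and for 24.9% of all genes), WT replicate 1 for 9 (22.3%) and KO replicate 1 for 9 (9.63%). Summed over the 40 members, the level was 1451 and 1585 CPM in the deep WT pair and 1524, 1124 and 1385 CPM in KO replicates 1, 2 and 3. WT replicate 3 held 28 member reads (exact 95% Poisson interval 18.6 to 40.5, counting error only), all from its first sequencing run. The deep WT mean would give 50.8 reads there and the KO mean 45.0, both above that interval. These expectations use a scaling factor of 1.2 for WT replicate 3, estimated from its own few reads. The interval leaves out the error of that factor, so a shortfall of member reads is not established. Of the 40 members 23 had 0 reads there.

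**Figure D3:**
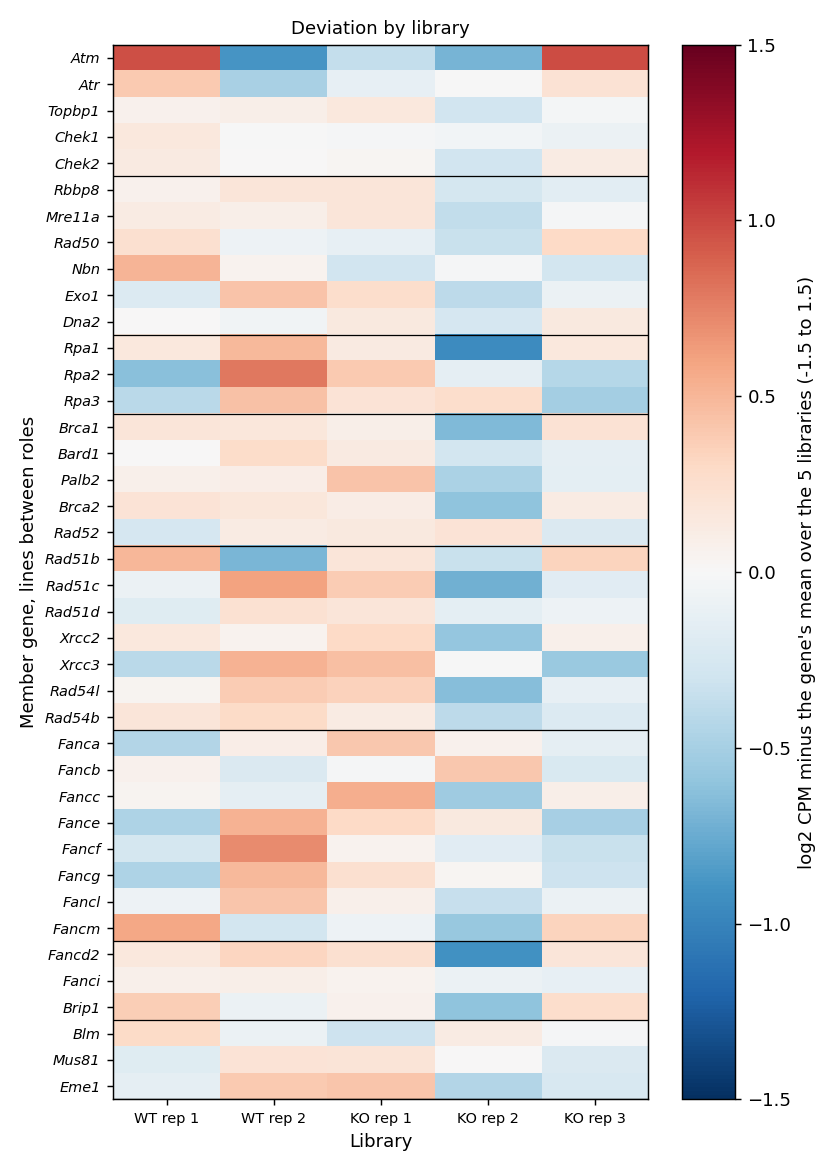
Log2 CPM of each of the 40 genes (y axis, lines between roles) minus that gene's mean over the 5 deep libraries (x axis); red is above and blue below the mean. KO replicate 2 is blue for most genes, with a median deviation of -0.28, and Atm is red in WT replicate 1 and KO replicate 3 and blue in the other libraries.

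A further contrast set WT replicate 2 and KO replicate 1 against WT replicate 1 and KO replicate 3, 1 library of each genotype on either side. The former pair had 5910 and 12107 Xist reads and 0 reads of Eif2s3y, a gene on chromosome Y. The latter pair had at most 1 Xist read, with 1078 and 1144 Eif2s3y reads, and KO replicate 2 had 865. The pairs thus differed in these sex-linked genes. Sex was not in the model, and its part in the contrast was not tested. Xrcc3 had 10.9 and 10.4 CPM in the former and 5.73 and 5.15 CPM in the latter. Fance had 19.0 and 16.3 CPM against 9.65 and 9.37 CPM. Fancg and Rpa2 leaned the same way, whereas Atm, Fancm and Rad51b were higher in WT replicate 1 and KO replicate 3. Fancm, for example, had 18.7 and 21.6 CPM against 34.0 and 28.5 CPM. Among these members KO replicate 2 kept to neither side, with 14.7 CPM of Fance, 7.59 CPM of Xrcc3, 12.2 CPM of Atm and 15.3 CPM of Fancm. These genes were picked for this contrast after their values were seen, and it received no test.

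Among the deep libraries, cell cycle genes were also lowest in KO replicate 2. The 27 genes of the S phase list summed to 2724 and 4169 CPM in the deep WT pair and to 3443, 2367 and 2823 CPM in KO, and the 20 mitosis genes to 4118 and 4523 CPM against 4155, 2719 and 3585 CPM. WT replicate 2 was highest in both lists, as it was for the sum of the members. In KO replicate 2 the 15.7% of mitochondrial reads and the 27.0% of multimapping reads were the highest of the deep libraries. The RNA of cell type markers varied too. Neutrophil granule genes summed to 13420, 39530, 34140, 10460 and 10740 CPM in WT replicates 1 and 2 and KO replicates 1, 2 and 3, and mast cell and basophil genes to 5374, 4007, 2953, 9222 and 4395 CPM. Monocyte and macrophage genes summed to between 1612 and 2953 CPM and erythroid genes to between 7.72 and 103.5 CPM. The libraries high in granule RNA, WT replicate 2 and KO replicate 1, were also those with Xist, at 5910 and 12107 reads against at most 1 in the others. WT replicate 3, with 0 Xist reads, held 699 granule reads, where the deep WT mean would give 886 and the KO mean 618. Between genotypes, all 10 granule genes had a negative log2 fold change (median -0.59, and -0.29 without KO replicate 2). Of these marker lists, 0 genes passed by edgeR. At an unadjusted p under 0.05 in edgeR's test, where 1.45% of all genes were, stood Mcpt4, a mast cell protease, at -2.28 (SE 0.53). In the monocyte and macrophage list C1qa at -2.35 (SE 0.67) and F13a1 at -1.42 (SE 0.43) did so too. Their lists had no common direction. Of 12 mast cell and basophil genes 6 were negative and 6 positive (median -0.03). Of 9 tested monocyte and macrophage genes 4 were negative and 5 positive (median 0.17). The part of these differences in the levels of the members was not tested, and in bulk RNA fewer cells of a type and less RNA per cell look the same.

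Other repair pathways gave no calls either. Of 39 tested genes of recombination and Fanconi repair outside the 40 members, 0 passed by edgeR in either direction and 0 had an unadjusted p under 0.05; 22 were negative, with a median of -0.04. Rmi2, which works with BLM, was at -0.66 (SE 0.46), and the resolvase gene Gen1 at -0.41 (SE 0.51). Of 15 end joining genes 0 passed and 7 were negative (median 0.01), with Polm, a polymerase of end joining, at 0.40 (SE 0.43) and Parp1, the sensor of nicks, at -0.26 (SE 0.32). Of 7 mismatch repair genes 0 passed (median -0.11), with Msh6, a subunit of the mismatch sensor, at -0.22 (SE 0.33).

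Lists of proliferation and of the damage response were read the same way. Of 27 S phase genes 0 passed and 23 were negative (median -0.17, and -0.08 without KO replicate 2), with the helicase subunit Mcm7 at -0.58 (SE 0.44) and Rrm1, a subunit of ribonucleotide reductase, at -0.46 (SE 0.37). Of 20 mitosis genes 0 passed and 17 were negative (median -0.24, and -0.05 without KO replicate 2), with Nusap1, a spindle protein, at -0.46 (SE 0.32) and cyclin A2, Ccna2, at -0.33 (SE 0.33). Of 19 tested p53 targets, which rise when DNA damage activates p53, 0 passed and 11 were negative (median -0.02), with Ddb2 at 0.51 (SE 0.47) and Sesn1 at -0.36 (SE 0.39). At an unadjusted p under 0.05 there were 0 genes in any of these 3 lists.

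**Figure D4:**
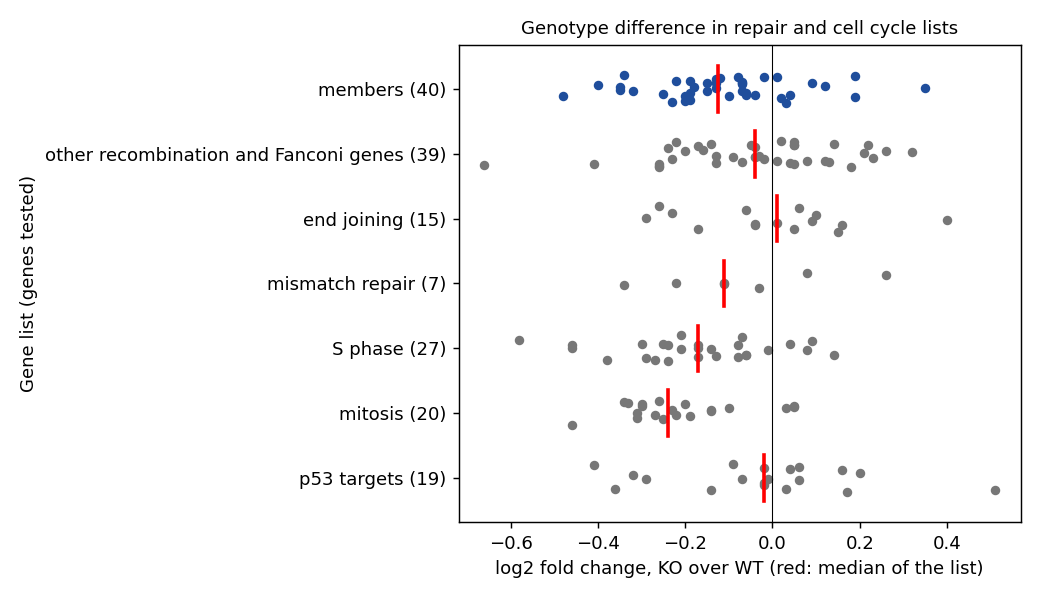
Log2 fold change of KO over WT (x axis) for the tested genes of the members and 6 repair, cell cycle and damage response lists (y axis, number tested in brackets); each point is 1 gene, and the red line is the list's median. Among these lists the medians run from -0.24 for mitosis to 0.01 for end joining, with the 40 members at -0.12.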

How the data were processed

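The authors deposited 7 files of raw counts (reads per gene), with a file for each run, laid out as STAR's gene counter writes them. Per the submitters' processing notes the tools were STAR 2.5.1b and DESeq2 and the build GRCm38; libraries were TruSeq Stranded mRNA per the labels' protocols. The sources used here do not name the annotation release. Column 4, the opposite strand, was used, since it held 95.6% to 97.5% of stranded gene reads. Runs of WT replicate 3 (27351 and 558 gene reads) were summed. The 4 rows that name no gene, 25.6% to 47.8% of reads, were left out. Symbols, coordinates and exon lengths came from GENCODE M21, by identifier (46488 of 46983 genes; 28 of 40 members with the same ID version).

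The test was edgeR 4.0.16 after filterByExpr and TMM scaling (robust glmQLFit, glmQLFTest, two-sided, genotype only, Benjamini-Hochberg over 12292 genes, threshold 0.05). On simulated data it recovered 10% of 50 genes changed by 1 log2 unit and 84% of 50 genes changed by 2. Standard errors are the log2 fold change over the root of F, and 95% intervals use the fit's degrees of freedom. Values per library were given for Rbbp8, and per role for the members of lowest p and of highest mean CPM. Atm, Rpa2, Brca2, Fanci, Xrcc3, Fance and Fancm were added after their values were seen. From each of 6 other lists (repair, S phase, mitosis and p53 targets) the 2 genes of lowest p were named, except for 1 gene that is not reported here. Mcpt4, C1qa and F13a1 were named after their values were seen. The members and lists were chosen with earlier results of these data known. Alternatives were scaling, filter, DESeq2 1.42.0, strand, runs, replicate block, threshold and libraries left out; DESeq2 without WT replicate 3 was added after seeing the data.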

Additional observations from a re-analysis of the deposited data

How the results depend on the processing

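None of the 40 members passed in any of the 15 alternative fits or at an adjusted p of 0.1, and the lowest adjusted p of a member in any fit was 0.913. The median log2 fold change of the members was -0.12 in the main fit. It ran from -0.19 without KO replicate 1 to 0.00 without KO replicate 2. Its moves from the main value were smaller than the SD between libraries of a group (0.18). That SD includes the low KO replicate 2 (median deviation -0.28), so it cannot show that the median is stable. Signs of single members also varied, and 32 of 40 turned in at least 1 fit. The 8 that kept theirs were Chek1, Rbbp8, Nbn, Rpa1, Bard1 and Rad54b (negative) and Dna2 and Fanca (positive). The number of negative members moved from 31 to 21 without KO replicate 2 or without WT replicate 2, while the share over all genes moved from 48.0% to 46.2% and 41.6%. Without both KO replicate 2 and WT replicate 3 the number was 28, beside 55.0% of all genes. Over all genes, where edgeR called 0, library size scaling called 2, the fit without a low-count filter 9, an adjusted p of 0.1 gave 4, DESeq2 called 1 and DESeq2 without WT replicate 3 called 12. Leaving out 1 library gave 0 to 5. The replicate block called 13 genes and 0 members (median -0.14). Deviations of same-numbered libraries from their group means correlated at -0.29, -0.03 and -0.15, and no library correlated best with its own number. The shallow WT replicate 3 enters the WT means, so these values cannot settle whether the replicate numbers pair the samples. DESeq2 ran on unfiltered genes, whose median was -0.32 (0.03 over the 12292 genes of the edgeR test). The cause of these differences in counts was not tested. Depth limits WT replicate 3 most, where a member at 0 reads may stand at up to 89.6 CPM.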

Other observations

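Counting strand mattered for a few members, most of which share their locus with a gene on the other strand. Summed over the 5 deep libraries, Xrcc3 had 448 reads on its own strand and 1096 when strand was ignored, and Klc1, a kinesin light chain gene, overlaps it on the opposite strand. Fanci, which overlaps the mitochondrial polymerase gene Polg, went the other way, from 1446 reads with strand to 1036 without, and Eme1 (Lrrc59 and Mrpl27) from 1653 to 1350. Fancl (Vrk2) went from 549 to 464 and Rad54l (Lrrc41) from 3188 to 2726. Atr went from 1558 to 1370, with no overlapping gene found in the annotation used. The median over all genes tested was 100% of the stranded count. Counts of these members from libraries without strand would therefore be less certain than those of Brca1 (3109 and 3113 reads) or Rbbp8 (3533 and 3553), and in the fit without strand 0 of the 40 members passed.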
